A study of Mus musculus with 6 samples.

Results

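Oxidative phosphorylation genes were taken by name from the liver RNA-Seq of mice on a high-fat diet (HFD). They comprised the mitochondrial mRNAs (*mt-Nd*, *mt-Co*, *mt-Cytb* and *mt-Atp*) and every nuclear gene whose symbol begins with *Ndufa*, *Ndufb*, *Ndufc*, *Ndufs*, *Ndufv*, *Uqcr*, *Cox4* to *Cox8* or *Atp5*, together with *Sdha*, *Sdhb*, *Sdhc* and *Sdhd*. The rule gave 106 of the 21528 genes listed in any library. Of these, 13 were mRNAs of the mitochondrial genome and 80 were nuclear genes for subunits of complexes I to V. The other members were 8 assembly factors of complex I (*Ndufaf*), 3 genes that share a name with subunits but are not subunits of these enzymes (*Atp5s*, *Atp5sl* and *Cox7a2l*) and 2 pseudogenes (*Atp5l2-ps* and *Ndufab1-ps*). The last 3 kinds were kept out of every sum below.

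Whole liver was sequenced from 3 wild-type (WT) and 3 TRIM24 C52/55A knockin mice, with 1 library per mouse. All 6 mice were labelled C57BL/6, and the knockin line was made on C57Bl/6J. They were 5 months old and had eaten a diet with 60% fat for 3 months. The knockin replaces cysteines 52 and 55 of the endogenous TRIM24, an E3 ubiquitin ligase, with alanine in all cells of the animal, and the controls were WT littermates. The sources used here give no sex for the sequenced mice, although other liver measurements of the study on this diet and at this age used male mice. In bulk tissue fewer cells of a type and less RNA per cell cannot be told apart.

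Oxidative phosphorylation takes place in the inner mitochondrial membrane, where complexes I to IV pass electrons from NADH and succinate to oxygen and complex V (ATP synthase) uses the resulting proton gradient to make ATP. Complexes I, III, IV and V are built from subunits of both genomes, whereas complex II, which is also succinate dehydrogenase of the tricarboxylic acid (TCA) cycle, is entirely nuclear. The mitochondrial mRNAs are cut from long transcripts of the circular genome, whereas each nuclear subunit has a promoter of its own. In the liver these enzymes re-oxidise the NADH and FADH2 made by the oxidation of fatty acids.

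The promoters of the member with the smallest p-value in each complex are shown to give the sequence from which these transcripts start. Each line holds the 100 bases upstream of the RefSeq start on GRCm38.p6, read 5′ to 3′ on the coding strand, which is the minus strand for all of these genes. Capitals mark a match to one of the motifs searched.

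Ndufs5 (complex I, chr4:123718187-123718286): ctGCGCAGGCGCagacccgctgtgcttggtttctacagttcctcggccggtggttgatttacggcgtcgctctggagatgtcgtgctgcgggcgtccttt

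Sdhd (complex II, chr9:50603850-50603949): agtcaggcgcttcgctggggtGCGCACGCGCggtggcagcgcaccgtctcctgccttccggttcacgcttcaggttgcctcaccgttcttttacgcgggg

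Uqcr10 (complex III, chr11:4704345-4704444): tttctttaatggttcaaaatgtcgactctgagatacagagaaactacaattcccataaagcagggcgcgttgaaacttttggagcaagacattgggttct

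Cox8a (complex IV, chr19:7217617-7217716): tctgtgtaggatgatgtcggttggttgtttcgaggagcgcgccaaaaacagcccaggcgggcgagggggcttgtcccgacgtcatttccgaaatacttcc

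Atp5g3 (complex V, chr2:73911327-73911426): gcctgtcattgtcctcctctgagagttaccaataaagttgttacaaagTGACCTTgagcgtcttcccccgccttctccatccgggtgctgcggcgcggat

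The motifs searched, on both strands, were those of NRF1 (the letters capitalised in *Ndufs5* and *Sdhd*, with any base in the middle), GABPA (CCGGAAGT), YY1 (AAGATGGC) and ESRRA (AAGGTCA), which are transcription factors known for control of nuclear mitochondrial genes. The *Ndufs5* and *Sdhd* sequences hold the NRF1 letters, and *Atp5g3* holds the ESRRA letters on the opposite strand. In windows from 250 bases before to 50 bases after the start, 66 of the 80 nuclear subunit genes had a RefSeq promoter. The NRF1 letters were in 25.8% of them, against 5.19% of all 27025 promoters and 11.75% of the promoters of genes tested here. The YY1 letters were in 15.2%, 3.19% and 5.43% of the same 3 sets, the ESRRA letters in 12.1%, 5.38% and 4.36%, and the GABPA letters in 7.6%, 4.31% and 9.31%. A match describes the letters only, and windows can hold more than 1 motif.

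Levels are FPKM as the authors deposited them, fragment numbers corrected for transcript length and for the size of the library, so that genes can be compared per length. They were tested as log2(FPKM + 1) with limma, whose p-values were adjusted by the Benjamini-Hochberg method over the 12225 genes that averaged 0.5 FPKM or more, and an adjusted p under 0.05 is called below. Nothing in the labels says that the mice differed in extraction or sequencing batch. The sum of all FPKM ran from 644619 to 648221 in WT and from 673244 to 676791 in the knockin, so the groups did not overlap in this total either. FPKM hold no depth, but steps between the lowest values put 1 fragment per kilobase at about 0.0586 to 0.0666 FPKM. On that estimate, the values of the called members rest on about 331 to 7439 fragments each. Of the marker genes for hepatocytes, 5 of 6 were listed, and their summed level was at least 15953 FPKM in every library. The other one was not analysed here, and it is left out of every sum and share of all FPKM and of TPM. The 7 of 8 markers of striated muscle that were listed summed to under 1 FPKM in every library, and the eighth was not analysed here. *Trim24* itself was at 5.54, 4.85 and 5.96 FPKM in WT and 6.15, 4.31 and 8.46 FPKM in the knockin, which does not check the labels, since the knockin changes codons and need not alter the amount of mRNA.

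Nuclear subunits of all 5 complexes had lower mean levels in the TRIM24 C52/55A liver (-14.7% to -19.3% when summed over a complex). The sum of the 13 mitochondrial mRNAs differed by -10.6%. The ratio of mitochondrial to nuclear subunit mRNA overlapped between the groups, and with quantile scaling the mitochondrial mRNAs had the more negative median. Of the 106 members, 101 passed the filter on low values. In the knockin 20 of the 101 were lower and 0 were higher at an adjusted p under 0.05 (limma). At an unadjusted p under 0.05, 60 were lower and 0 higher. Over all genes tested 6.09% were lower and 1.64% were higher at an adjusted p under 0.05, and 19% and 4.63% at an unadjusted p under 0.05. All 20 were nuclear subunits, 5 of complex I, 2 of complex II, 3 of complex III, 5 of complex IV and 5 of complex V. Among all 77 nuclear subunits tested, 76 had a negative log2 fold change and the median was -0.25, beside -0.08 over all genes tested, of which 65.5% were negative. The 2 groups of mice did not overlap, with the knockin lower, for 72 of the 101 members and for 22.5% of all genes tested. Abundant genes of all kinds were called lower more often than genes at 0.5 to 5 FPKM, of which 2.95% were called lower. Of the genes at 200 FPKM or more, 21.3% were called lower with a median of -0.15, and of the genes at 60 to 200 FPKM 16.1% were called lower with a median of -0.18. The nuclear subunits in those classes had 9 of 19 and 10 of 44 members called, with medians of -0.29 and -0.25.

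The calls depended on single mice, on the filter and variance model and on how the libraries were scaled. Of the 101 members 20 were called as reported, 7 with no variance trend and 2 with the replicate number as a block, and with no filter 5 of 106 were called. Without WT replicate 3 or without knockin replicate 1, 0 members were called (limma, with 45 and 44 lower at an unadjusted p under 0.05), with 1 called without WT replicate 1, 2 without WT replicate 2, 30 without knockin replicate 2 and 8 without knockin replicate 3. The calls over all genes moved with them, from 744 lower to 212 without WT replicate 3, 202 without knockin replicate 1, 216 without WT replicate 1, 344 without WT replicate 2, 1041 without knockin replicate 2 and 595 without knockin replicate 3. WT replicate 3 was the highest WT mouse for 64 of the 77 nuclear subunits, and knockin replicate 1 was the lowest knockin mouse for 57. The median log2 fold change of the nuclear subunits stayed between -0.22 and -0.28 in these 6 fits. The median level of the 77 nuclear subunits relative to the WT mean was, on the log2 scale, -0.02, -0.04 and 0.06 in the WT mice and -0.33, -0.19 and -0.25 in the knockin mice. For the 10009 genes above 1 FPKM in every library the same medians were -0.01, -0.02 and 0.02 in WT and -0.14, -0.06 and -0.11 in the knockin. Thus the knockin mice kept the same order in both sets, with replicate 1 lowest and replicate 2 highest.

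**Figure D1:**
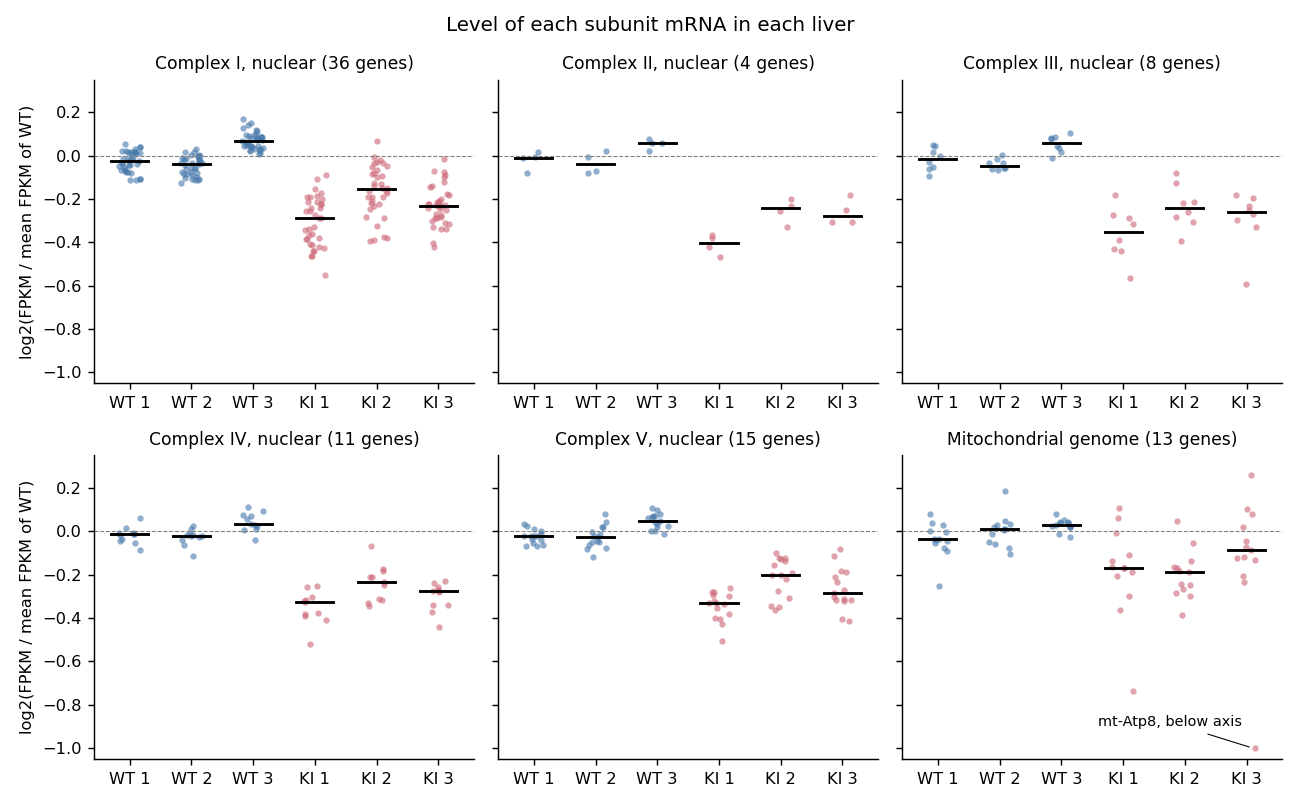
Level of each subunit mRNA in each liver, as log2 of its FPKM over the mean FPKM of the 3 WT mice, for nuclear subunits of complexes I to V (those with a WT mean above 5 FPKM) and for the 13 mitochondrial mRNAs. Points are genes and black lines are medians over the genes of a panel. In every nuclear panel the 3 knockin medians lie below the 3 WT medians, and the mitochondrial panel has more overlap. The point drawn at the lower edge, *mt-Atp8* in knockin replicate 3, lies below the axis.

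Complex I takes electrons from NADH and is the largest of the complexes. All 36 of its nuclear genes passed the filter, and all 36 had a negative log2 fold change, from -0.42 to -0.07 with a median of -0.23. The groups did not overlap for 27 of them. The 5 that were called, *Ndufs5*, *Ndufa3*, *Ndufc2*, *Ndufa7* and *Ndufb2*, all encode accessory subunits. *Ndufs5* was at 99.1, 91.0 and 99.3 FPKM in WT replicates 1 to 3 and at 71.9, 73.6 and 73.1 FPKM in knockin replicates 1 to 3. Its level fell by 24.5% (log2 fold change -0.40, 95% confidence interval -0.56 to -0.24, limma adjusted p = 0.0159), and the knockin mice lay within 2 FPKM of each other. *Ndufc2* was at 56.6, 53.8 and 57.9 FPKM in WT and at 38.3, 42.7 and 44.3 FPKM in the knockin. Its log2 fold change, -0.42, was the most negative in complex I (limma adjusted p = 0.0219). *Ndufa3* fell by 22.7% (limma adjusted p = 0.0199), *Ndufa7* by 23.4% (0.0349) and *Ndufb2* by 21.3% (0.0368), and the groups did not overlap for any of them. The files give *Ndufa3* and *Ndufb2* intervals 4.25 and 14 times as long as the annotated gene, so their values may hold other transcripts.

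The 7 nuclear core subunits of complex I, which carry the flavin and the iron-sulphur clusters or form the quinone site, had a median log2 fold change of -0.14 and 0 calls, with 3 at an unadjusted p under 0.05. The 29 accessory subunits had a median of -0.24, and 5 of them were called. That difference between core and accessory subunits was not tested. *Ndufb9*, the most abundant nuclear mRNA of the complex, was at 223, 223 and 235 FPKM in WT and at 192, 222 and 194 FPKM in the knockin (limma adjusted p = 0.265), so that knockin replicate 2 almost reached the WT mice. *Ndufa6* was at 152, 162 and 170 FPKM in WT and at 121, 141 and 135 FPKM in the knockin (limma adjusted p = 0.0874). At the other end, *Ndufs4* had a log2 fold change of -0.07 and overlapping groups.

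The 8 assembly factors of complex I, which help to build the enzyme and are not part of it, were at means of 3.51 to 19.5 FPKM, below all nuclear subunits of the complex but *Ndufa11*. None was called (limma, with 1 of 8 at an unadjusted p under 0.05), their median log2 fold change was -0.12, and the groups did not overlap for 1 of them, *Ndufaf2*. Both counts are below the shares over all genes tested. Of those, 19% were lower at an unadjusted p under 0.05 (limma), and 22.5% had no overlap with the knockin lower. *Ndufaf2* was at 15.7, 14.6 and 16.0 FPKM in WT and at 12.6, 11.2 and 12.5 FPKM in the knockin (limma adjusted p = 0.0583).

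Complex II passes electrons from succinate to ubiquinone. For all 4 of its genes the 3 knockin mice lay below the 3 WT mice. *Sdha*, the flavoprotein that binds succinate, was at 235, 236 and 241 FPKM in WT and at 177, 199 and 199 FPKM in the knockin, and fell by 19.2% (log2 fold change -0.31, limma adjusted p = 0.0462). *Sdhd*, 1 of the 2 membrane anchors, was at 164, 157 and 174 FPKM in WT and at 120, 131 and 134 FPKM in the knockin, and fell by 22.4% (log2 fold change -0.36, limma adjusted p = 0.0308). The other anchor, *Sdhc*, was at 110, 103 and 114 FPKM in WT and at 84.8, 93.0 and 88.4 FPKM in the knockin and did not pass the threshold (limma adjusted p = 0.0515). The iron-sulphur subunit *Sdhb*, at 120, 129 and 132 FPKM in WT and 97.6, 110 and 112 FPKM in the knockin, had a limma adjusted p of 0.110. Their log2 fold changes, from -0.36 to -0.25, lay within the confidence intervals of one another.

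Complex III passes electrons from ubiquinol to cytochrome c. All 8 of its nuclear genes were lower in each knockin mouse than in any WT mouse, and 3 were called. *Uqcr10*, a small accessory subunit, was at 215, 211 and 233 FPKM in WT and at 149, 167 and 146 FPKM in the knockin. It fell by 29.9% (log2 fold change -0.51, 95% confidence interval -0.70 to -0.32, limma adjusted p = 0.0113), which was the most negative log2 fold change and the smallest p of the nuclear subunits. It was called in 14 of 16 alternative analyses, with a log2 fold change from -0.61 to -0.38, whereas the other 19 called subunits were called in 5 to 11 of the 16. *Uqcrq*, another small subunit and the most abundant nuclear mRNA of the complex, was at 243, 251 and 267 FPKM in WT and at 187, 209 and 202 FPKM in the knockin (log2 fold change -0.35, limma adjusted p = 0.0331). *Uqcr11* was at 239, 227 and 231 FPKM in WT and at 192, 188 and 189 FPKM in the knockin (log2 fold change -0.29, limma adjusted p = 0.0355). The knockin mice were thus close together for *Uqcr11*, as they were for *Ndufs5*. *Uqcrb*, at 215, 230 and 243 FPKM in WT and 170, 197 and 193 FPKM in the knockin, did not pass the threshold (limma adjusted p = 0.0778), and its interval in the files is 20.5 times the annotated gene. The core subunits *Uqcrc1* and *Uqcrc2* and the Rieske iron-sulphur protein *Uqcrfs1* had log2 fold changes of -0.22, -0.23 and -0.30 and were not called. *Uqcrh*, the hinge protein, had the smallest difference, -0.15.

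Complex IV, cytochrome c oxidase, passes the electrons to oxygen. Of its 17 nuclear genes 14 passed the filter, 13 of them had a negative log2 fold change, and 5 were called. *Cox8a* was at 290, 296 and 317 FPKM in WT and at 210, 243 and 222 FPKM in the knockin, and fell by 25.4% (log2 fold change -0.42, 95% confidence interval -0.61 to -0.23, limma adjusted p = 0.0214). *Cox7c* was at 380, 370 and 378 FPKM in WT and at 301, 296 and 297 FPKM in the knockin, a fall of 20.7% (limma adjusted p = 0.0222) that was larger than any spread within a group. The other 3 that were called, *Cox6c*, *Cox6b1* and *Cox7b*, had log2 fold changes of -0.36, -0.31 and -0.31 (limma adjusted p = 0.0281, 0.0316 and 0.0401). All 5 are small subunits around the mitochondrially encoded core, and the interval of *Cox6c* in the files is 45.8 times the annotated gene. The 3 most abundant nuclear mRNAs of the complex, *Cox6a1* (log2 fold change -0.27), *Cox4i1* (-0.23) and *Ndufa4* (-0.23), had no overlap between groups but did not pass the threshold (limma adjusted p = 0.0846, 0.0978 and 0.0805). *Cox4i1* was at 438, 424 and 465 FPKM in WT and at 370, 392 and 365 FPKM in the knockin, and its interval in the files is 741 times the annotated gene.

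Several complex IV subunits have paralogues used by other tissues or conditions, and the liver forms made up nearly all of each pair. *Cox6a1* was at 482, 448 and 524 FPKM in WT, whereas *Cox6a2*, the heart and muscle form, was at 0.0862 FPKM in 1 WT mouse, at 0.246 FPKM in 1 knockin mouse and unlisted in the others. *Cox8b*, another muscle form, was at 0.401 FPKM in knockin replicate 2 and unlisted elsewhere. The same mouse had the adipocyte genes *Adipoq* at 4.55 FPKM and *Lep* at 3.98 FPKM, against at most 0.127 FPKM in the other 5, and their part in its values was not tested. *Cox7a2* was at 114, 113 and 116 FPKM in WT and at 87.2, 101 and 97.5 FPKM in the knockin (limma adjusted p = 0.0796), against 1.57 to 2.80 FPKM over all 6 mice for *Cox7a1*, the muscle form. *Cox7a2l*, a factor of respiratory supercomplexes and not a subunit of the lone enzyme, was at 66.0, 64.5 and 68.3 FPKM in WT and at 58.8, 69.5 and 62.7 FPKM in the knockin, with a log2 fold change of -0.06 that was positive with median-of-ratios (0.04) and quantile (0.08) scaling. *Cox6b2*, the testis form, had means below 1 FPKM in both groups and overlapping values. *Cox7b2*, *Cox8c* and *Uqcrhl* were not analysed here.

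*Cox4i2*, the form of subunit 4 known for its induction by low oxygen, was at 0.321, 0.312 and 0.361 FPKM in WT and at 0.0784 FPKM in knockin replicate 1, and the tables of the other 2 knockin mice do not list it. The tables list only values above 0, and an unlisted gene was entered as 0 without being shown to be absent. It did not pass the filter on low values. At its length 1 fragment is worth about 0.0803 to 0.0913 FPKM, so these values stand for about 3.67 to 4.5 fragments in WT and 0.858 in knockin replicate 1. When genes of any level were tested, it was called (log2 fold change of FPKM + 1 -0.38, limma adjusted p = 0.0221). *Ndufa4l2*, likewise known for its induction by low oxygen, was at 1.05, 0.870 and 0.603 FPKM in WT and at 0.876, 1.12 and 0.910 FPKM in the knockin, with overlapping groups. It was the nuclear subunit with the most positive log2 fold change, 0.10 (95% confidence interval -0.19 to 0.39, limma adjusted p = 0.691).

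Complex V joins a catalytic head and central stalk to a membrane ring. For all 15 of its nuclear genes the knockin mice lay below the WT mice, with log2 fold changes from -0.37 to -0.17. *Atp5g3*, 1 of 3 genes for the c subunit of the ring, was at 488, 517 and 502 FPKM in WT and at 379, 394 and 403 FPKM in the knockin, and fell by 21.9% (log2 fold change -0.36, limma adjusted p = 0.0220). The other genes for the same subunit, *Atp5g1* and *Atp5g2*, had log2 fold changes of -0.25 and -0.28 and were not called. Of the central stalk, *Atp5e* was at 250, 245 and 266 FPKM in WT and at 203, 205 and 190 FPKM in the knockin (limma adjusted p = 0.0281). *Atp5d*, the delta subunit, was at 212, 207 and 228 FPKM in WT and at 152, 185 and 163 FPKM in the knockin (log2 fold change -0.37, limma adjusted p = 0.0461), with a file interval 4.18 times the annotated gene. The membrane subunits *Atp5k* and *Atp5l* both had a log2 fold change of -0.32 (limma adjusted p = 0.0367 and 0.0394).

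The catalytic head had the most abundant nuclear mRNA of all members. *Atp5b*, the beta subunit, was at 804, 736 and 854 FPKM in WT and at 650, 716 and 678 FPKM in the knockin (log2 fold change -0.23, 95% confidence interval -0.42 to -0.03, limma adjusted p = 0.151). *Atp5a1*, the alpha subunit, was at 452, 437 and 445 FPKM in WT and at 367, 387 and 385 FPKM in the knockin (log2 fold change -0.23, limma adjusted p = 0.0831). The groups did not overlap for either gene, but neither passed the threshold.

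**Figure D2:**
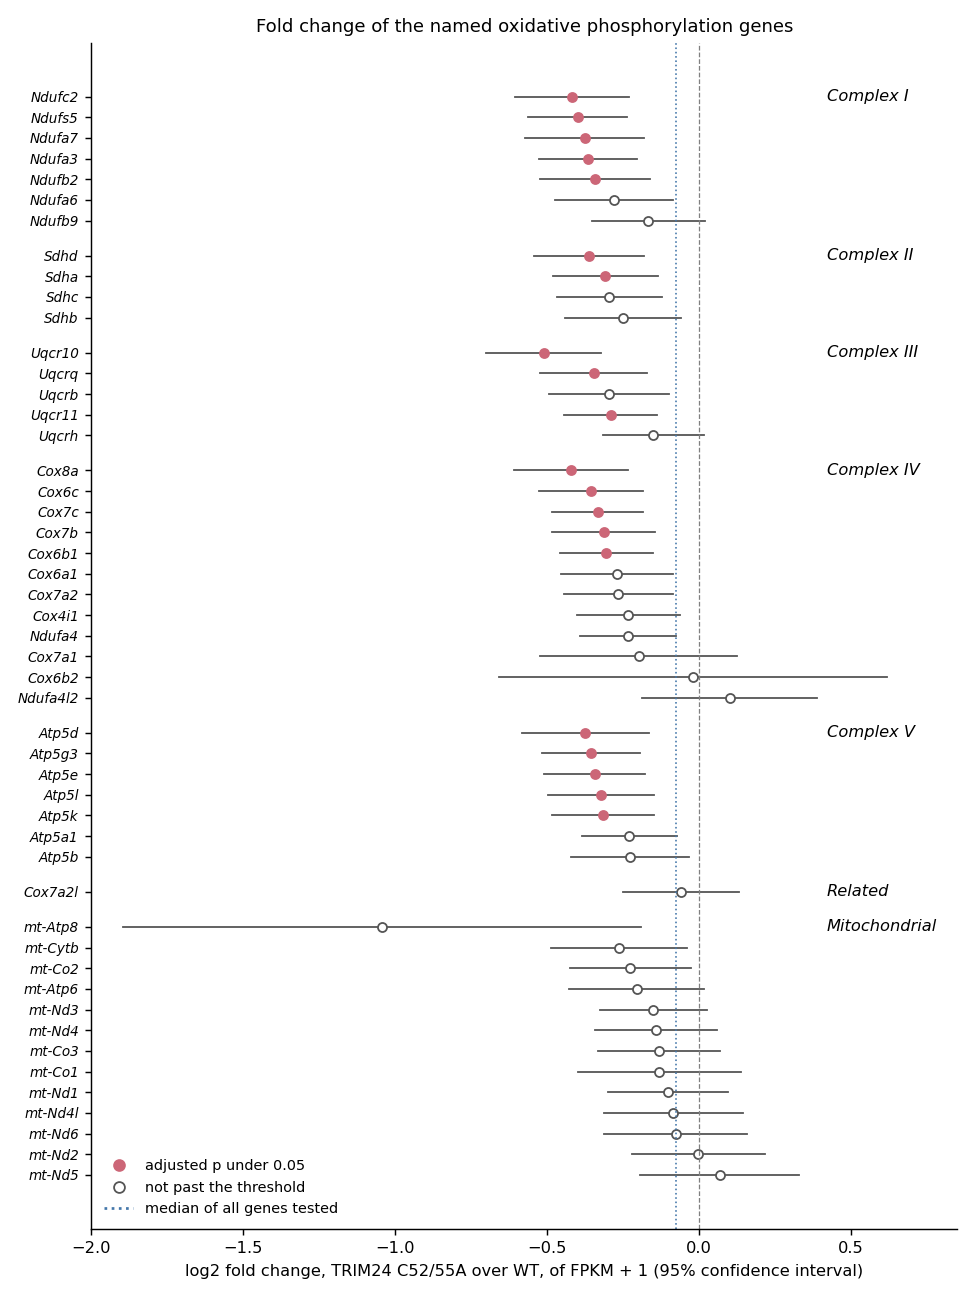
Log2 fold change of FPKM + 1, TRIM24 C52/55A over WT (3 mice each), of the named members that were tested, with the 95% confidence interval from limma. Filled points have an adjusted p under 0.05, open points do not, and the dotted line is the median of all 12225 genes tested, -0.08. All filled points are nuclear subunits, from *Uqcr10* at -0.51 to *Uqcr11* at -0.29, and the widest interval among the mitochondrial mRNAs is that of *mt-Atp8*.

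Summed over subunits, each complex had a lower nuclear level in every knockin mouse. The 36 nuclear mRNAs of complex I summed to 2912, 2877 and 3112 FPKM in WT and to 2408, 2655 and 2534 FPKM in the knockin. Complex II summed to 639 ± 19.3 FPKM in WT and 515 ± 31.5 in the knockin (mean ± SD, n = 3), and complex III to 1592 ± 55.6 and 1293 ± 54.6. Complex IV summed to 3235 ± 111 and 2639 ± 84.6, and complex V to 3997 ± 122 and 3312 ± 148. The differences of the means were -14.7%, -19.3%, -18.8%, -18.4% and -17.1% for complexes I to V. No p-value is given for these sums, and no difference between complexes was tested. Together the nuclear subunits made up 1.90%, 1.87% and 2.01% of all FPKM in WT and 1.46%, 1.59% and 1.52% in the knockin.

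The 13 mitochondrial mRNAs were the most abundant members, at means of 1794 to 19204 FPKM. They summed to 90765, 93515 and 94649 FPKM in WT and to 81645, 80568 and 87115 FPKM in the knockin, a difference of -10.6% without overlap. As a share of all FPKM they made up 14.1%, 14.4% and 14.7% in WT and 12.1%, 11.9% and 12.9% in the knockin. None of the 13 was called (limma, with 3 at an unadjusted p under 0.05), and their median log2 fold change was -0.13. The groups did not overlap for 6 of them. Over all genes tested, 19% were lower at an unadjusted p under 0.05 (limma), and 22.5% had no overlap with the knockin lower.

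Of the 7 mitochondrial mRNAs of complex I, which encode subunits of its membrane arm, 6 had overlapping groups, and the log2 fold changes ran from -0.15 for *mt-Nd3* to 0.07 for *mt-Nd5*. *mt-Nd1* was at 7441, 6901 and 7501 FPKM in WT and at 6626, 7024 and 6687 FPKM in the knockin. *mt-Nd2* was at 7755, 7693 and 8412 FPKM in WT and at 8288, 8230 and 7317 FPKM in the knockin, a log2 fold change of -0.00 (95% confidence interval -0.22 to 0.22) that was 0.10 with median-of-ratios scaling. *mt-Nd5* was at 2243, 2094 and 2209 FPKM in WT and at 2348, 1947 and 2610 FPKM in the knockin (95% confidence interval -0.20 to 0.33), and its sign turned with quantile scaling (-0.27). *mt-Nd3*, at 2011, 2045 and 2138 FPKM in WT and 1916, 1875 and 1790 FPKM in the knockin, was the one mRNA of this group without overlap (limma adjusted p = 0.287). *mt-Nd4*, *mt-Nd4l* and *mt-Nd6* had log2 fold changes of -0.14, -0.09 and -0.08. With median-of-ratios scaling *mt-Nd4l* and *mt-Nd6* were at 0.02 and 0.03, and *mt-Nd1* at 0.00. As deposited, *mt-Nd4* and *mt-Nd4l* share an interval, and so do *mt-Nd5* and *mt-Nd6*. How fragments were divided within these pairs is not given in the sources used here.

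*mt-Cytb*, the cytochrome b of complex III, was at 11174, 11698 and 11725 FPKM in WT and at 8957, 9380 and 10527 FPKM in the knockin. Its log2 fold change was -0.26 (limma adjusted p = 0.146), beside a median of -0.29 for the nuclear subunits of the complex. The 3 core subunits of complex IV differed among themselves. *mt-Co2* was at 8968, 9689 and 9731 FPKM in WT and at 8206, 7999 and 8045 FPKM in the knockin (log2 fold change -0.23, limma adjusted p = 0.157). *mt-Co1*, the most abundant member, was at 20064, 20145 and 19855 FPKM in WT and at 17593, 16429 and 21140 FPKM in the knockin, so that knockin replicate 3 was above all WT mice. *mt-Co3* was at 8380, 8676 and 8750 FPKM in WT and at 7644, 7585 and 8333 FPKM in the knockin (log2 fold change -0.13).

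The 2 mitochondrial mRNAs of complex V lie on 1 transcript, and their coding sequences overlap by 43 bases (mitochondrial genome, plus strand, chrMT:7927-7969). The overlap is shown because reads in it belong to both genes, with the start codon of *mt-Atp6* and the stop codon of *mt-Atp8* in capitals.

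mt-Atp8 and mt-Atp6: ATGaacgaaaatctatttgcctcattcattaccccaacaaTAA

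*mt-Atp6* was at 7723, 8051 and 8269 FPKM in WT and at 6510, 6739 and 7633 FPKM in the knockin (log2 fold change -0.21, limma adjusted p = 0.244). *mt-Atp8*, of 204 bases, was at 2952, 4006 and 3591 FPKM in WT and at 2111, 2690 and 850 FPKM in the knockin. Its log2 fold change, -1.04, was the most negative of all members, with a 95% confidence interval from -1.90 to -0.19 and a limma adjusted p of 0.134. Knockin replicate 3 set its size, since without that mouse the log2 fold change was -0.55. In that mouse *mt-Atp6*, from the same transcript, was the highest of the knockin mice. The files give *mt-Atp8*, *mt-Atp6* and *mt-Co3* 1 shared interval, and how fragments were divided among them is not given in the sources used here.

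For 7 of the mitochondrial mRNAs the files also list a copy on chromosome 1 (GRCm38 24611535 to 24616197, minus strand, annotated as unprocessed pseudogenes). For *mt-Atp6*, *mt-Co2*, *mt-Co3*, *mt-Nd3* and *mt-Nd4l* the copy had 98.0% to 99.9% of the 50-base windows of the mitochondrial gene, and its FPKM was 0.990 to 1.01 times that of the mitochondrial gene in every library. The copies of *mt-Nd4* and *mt-Co1* shared 62.2% and 28.7% of windows, with FPKM ratios of 0.567 to 0.607 and 0.265 to 0.284. The values of these mRNAs are therefore uncertain by the share of fragments given to the copies. The 7 copies summed to 6.24%, 6.48% and 6.55% of all FPKM in WT and to 5.43%, 5.23% and 5.83% in the knockin. The ribosomal RNAs of the mitochondrial genome, *mt-Rnr1* and *mt-Rnr2*, overlapped between groups. *mt-Rnr1* was at 1003, 994 and 981 FPKM in WT and at 1324, 938 and 1027 FPKM in the knockin.

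The ratio of mitochondrial to nuclear subunit mRNA within a library does not change when all values of that library are multiplied by 1 factor. It was 7.41, 7.72 and 7.32 in WT and 8.29, 7.52 and 8.45 in the knockin, or 7.48 ± 0.211 against 8.09 ± 0.498 (SD, n = 3). Knockin replicate 2 lay within the WT range, so the groups overlapped. For complex I alone the ratio was 10.8, 10.9 and 10.5 in WT and 12.7, 11.2 and 12.1 in the knockin, without overlap. For complex III, complex IV and complex V the ratios overlapped, with differences of the means of 2.75%, 10.5% and -7.45%.

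**Figure D3:**
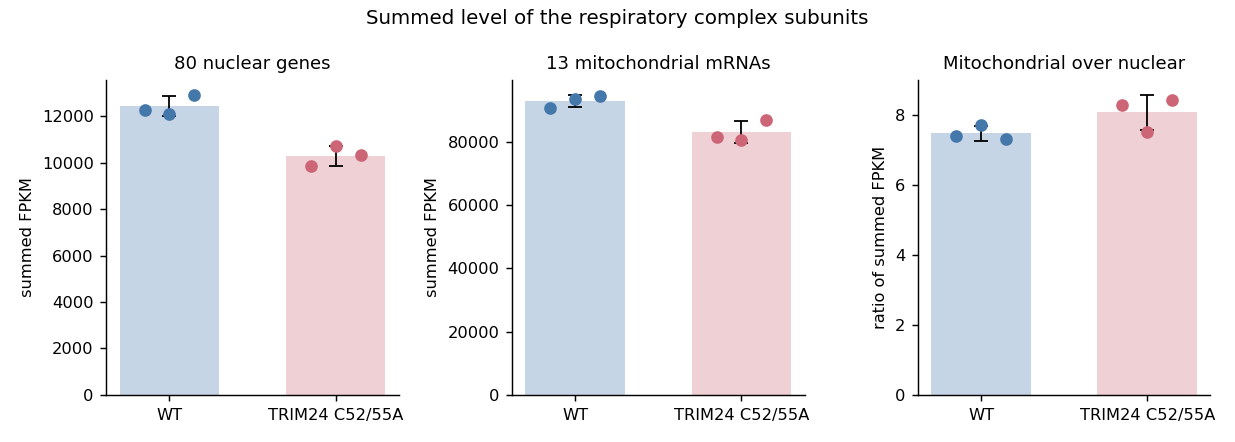
Summed FPKM of the 80 nuclear subunit genes (left) and of the 13 mitochondrial mRNAs (centre), and the ratio of the mitochondrial to the nuclear sum (right), in WT and TRIM24 C52/55A liver. Bars are means, error bars SD and points single mice (n = 3). Both sums separate the groups, whereas the ratio of knockin replicate 2, 7.52, lies among the WT mice.

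Scaling was examined because the sums of all FPKM differed between the groups. As deposited, the median log2 fold change was -0.25 for nuclear subunits, -0.13 for mitochondrial mRNAs and -0.08 for all genes. With TPM, in which every library has the same total, these were -0.31, -0.20 and -0.14, and 48 members were called lower against 11.1% of all genes. A further scaling fixed the total outside the mitochondrial genome, which still held the chromosome 1 copies (5.23% to 6.55% of all FPKM). With this fixed total these medians were -0.34, -0.23 and -0.15, and 59 members were called lower, 2 of them mitochondrial, against 15.1% of all genes. With median-of-ratios scaling, in which the typical gene is held equal, they were -0.14, -0.03 and 0.01, and *Cox8a*, *Ndufc2*, *Ndufs5* and *Uqcr10* were called lower, against 3.35% of all genes. With quantile normalization, which forces all libraries to 1 distribution, they were -0.10, -0.33 and 0.01, and *Uqcr10*, *mt-Co2*, *mt-Cytb* and *mt-Nd4* were called lower, against 3.1% of all genes. No member was called higher under any of these 5 scalings.

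The all-gene median moved by up to 0.16 between scalings, so differences relative to it were also taken. Relative to all genes the nuclear subunits were at -0.17 as deposited, -0.17 with TPM, -0.19 with the fixed total, -0.15 with median of ratios and -0.11 with quantile normalization. The mitochondrial mRNAs were at -0.06, -0.06, -0.08, -0.04 and -0.34 under the same scalings. The nuclear subunits were thus below the typical gene under all 5 scalings, with 76, 76, 76, 72 and 68 of the 77 negative in the same order. By contrast, the order of the nuclear and mitochondrial genes turned over under quantile normalization, where the log2 ratio of mitochondrial to nuclear mRNA went from 0.11 to -0.23.

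**Figure D4:**
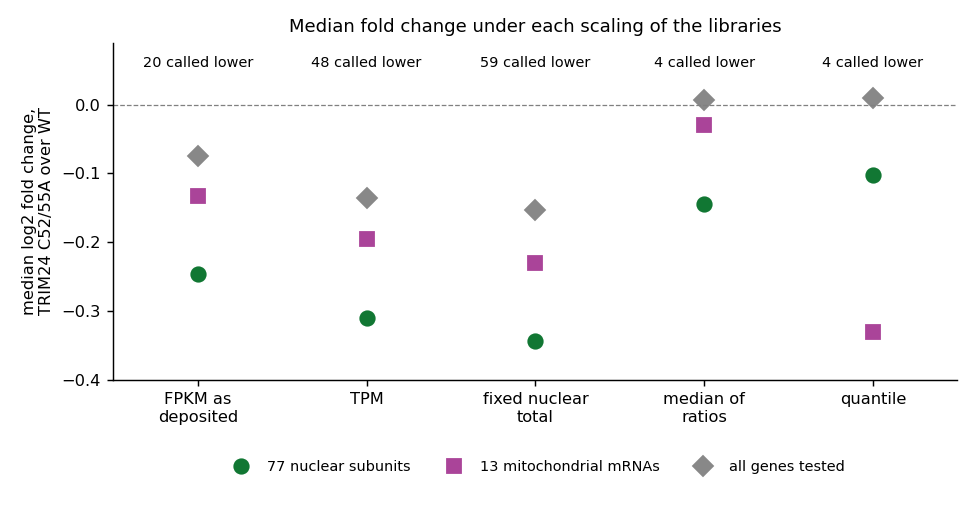
Median log2 fold change, TRIM24 C52/55A over WT, of the 77 nuclear subunits tested, the 13 mitochondrial mRNAs and all genes tested, under 5 scalings of the same 6 libraries, with the number of members called lower above each. Nuclear subunits lie below all genes under each scaling, and mitochondrial mRNAs lie between the other sets except with quantile normalization, where they are lowest at -0.33.

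Transcript length, which enters FPKM, was compared as a description. Most subunit mRNAs are short, with a median length of 659 bases over the nuclear subunits. The 60 nuclear subunits of up to 1 kb had a median log2 fold change of -0.25, as did the 14 of 1 to 2 kb. All genes tested of the same lengths had medians of -0.11 and -0.10. Across the 77 subunits the Spearman correlation of length with log2 fold change was 0.19 (genes of the same 6 libraries, which are not independent).

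Genes that work with the complexes were described from lists. Of 26 other respiratory chain and carrier genes tested, 3 were lower and 0 higher (limma), with a median of -0.19, beside 6.09% of all genes called lower. These were *Ucp2*, a mitochondrial carrier of the uncoupling protein family, *Coq7*, an enzyme of ubiquinone synthesis, and *Slc25a5*, an ADP/ATP carrier. *Ucp2* was at 37.4, 34.7 and 35.3 FPKM in WT and at 20.9, 26.1 and 22.4 FPKM in the knockin, and fell by 35.4% (limma adjusted p = 0.0102). *Coq7* was at 29.7, 27.6 and 27.5 FPKM in WT and at 19.7, 20.4 and 20.2 FPKM in the knockin, and fell by 28.8% (limma adjusted p = 0.0105). *Slc25a5* fell by 24.7% (limma adjusted p = 0.0251). The number lower was 8 with TPM, 12 with the fixed total and 2 with median-of-ratios and with quantile scaling, and 0 without WT replicate 1. Of all genes, 11.1%, 15.1%, 3.35% and 3.1% were called lower under these scalings.

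The TCA cycle, which supplies NADH and succinate, had the most calls of the lists. Of 19 genes of the cycle and its entry enzymes, all had a negative log2 fold change, 10 were lower and 0 higher (limma), and the median was -0.30. Over all genes tested 6.09% were lower and 65.5% were negative. The share called lower was larger among abundant genes, at 10.9% from 20 to 60 FPKM, 16.1% from 60 to 200 FPKM and 21.3% from 200 FPKM. *Pcx*, pyruvate carboxylase, was at 180, 157 and 162 FPKM in WT and at 87.6, 105 and 101 FPKM in the knockin, and fell by 41.1% (limma adjusted p = 0.00449). *Suclg2*, a subunit of succinyl-CoA synthetase, was at 244, 239 and 270 FPKM in WT and at 166, 167 and 163 FPKM in the knockin, and fell by 34.2% (limma adjusted p = 0.00468). *Pdha1* of pyruvate dehydrogenase, *Idh2*, an isocitrate dehydrogenase, and *Cs*, citrate synthase, fell by 33.8%, 37.2% and 28.2%. The first 4 of these differences were larger than that of every called subunit, the largest of which was -29.9% (*Uqcr10*), and the contrast was not tested. The number of TCA genes called lower was 14 with TPM, 16 with the fixed total, 7 with median of ratios and 5 with quantile normalization, and 3 to 9 when 1 mouse was left out. Under the same scalings 11.1%, 15.1%, 3.35% and 3.1% of all genes were called lower. With 1 mouse left out, 202 to 1041 of all genes were called lower.

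Genes that assemble the complexes or express the mitochondrial genome are read against all genes tested, of which 6.09% were lower as deposited, 11.1% with TPM and 15.1% with the fixed total. Of 38 genes for assembly and for delivery of copper and haem, 2 were lower, *Coa6* (-30.5%, limma adjusted p = 0.0441) and *Acad9* (-32.8%, limma adjusted p = 0.0480), which act in the assembly of complex IV and of complex I, and the median was -0.14. The number lower was 5 with TPM and 8 with the fixed total. Neither gene was called with no filter, with no variance trend, with median-of-ratios or quantile scaling, nor without any 1 of WT replicates 1 to 3 or knockin replicate 1. Of 32 genes for expression of mitochondrial DNA, 1 was lower, and the median was -0.04. This was *Hsd17b10*, a dehydrogenase that is also part of mitochondrial RNase P, at 168, 186 and 176 FPKM in WT and at 100, 99.3 and 137 FPKM in the knockin (limma adjusted p = 0.0201). The number lower was 1 with TPM and 2 with the fixed total. The list's median was 0.05 with median-of-ratios and with quantile scaling, and it had 0 calls with no filter, with quantile scaling and without any 1 of WT replicates 1 to 3 or knockin replicate 1. Of 79 genes with names of mitochondrial ribosomal proteins, which include the pseudogene *Mrpl23-ps1*, 3 were lower (*Mrpl34*, *Mrps14* and *Mrpl41*), with a median of -0.16. The number lower was 10 with TPM, 18 with the fixed total and 6 without knockin replicate 2, and 0 were called (limma) with no filter, with median-of-ratios and quantile scaling, with the replicate number as a block, and without any 1 of WT replicates 1 to 3 or knockin replicate 1. Of 18 mitochondrial proteases, chaperones and membrane-shaping proteins, 3 were lower, with a median of -0.15. These were *Spg7*, a subunit of an inner membrane protease, *Mfn2*, a fusion protein, and *Chchd3*, a cristae protein, with differences of -28.4%, -26.3% and -23.9%. The number lower was 4 with TPM and 5 with the fixed total, and 0 with quantile scaling (limma), with the replicate number as a block and without WT replicate 1, WT replicate 3 or knockin replicate 1. The median was -0.02 with quantile scaling.

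Of 15 regulators of mitochondrial genes tested, including *Ppargc1a*, *Nrf1*, *Gabpa* and *Esrra*, 0 were lower and 0 higher (limma, with 2 lower and 0 higher at an unadjusted p under 0.05), and the median was -0.01. *Esrra*, a nuclear receptor, was at 11.7, 9.11 and 10.7 FPKM in WT and at 8.21, 8.88 and 8.83 FPKM in the knockin (limma adjusted p = 0.197), and *Ppargc1a*, a coactivator, overlapped at 0.894 to 1.57 FPKM in WT and 0.642 to 1.5 FPKM in the knockin. With TPM and with the fixed total 1 of the 15 was called lower. The 79 cytosolic ribosomal proteins, which have short and abundant mRNAs like the subunits, had 0 calls (limma, with 0 at an unadjusted p under 0.05) and a median of -0.00, which was -0.07 with TPM, -0.10 with the fixed total, 0.10 with median-of-ratios and 0.15 with quantile scaling. With 1 mouse left out the median ran from -0.09 to 0.06, and 1 gene was called lower without knockin replicate 2.

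**Figure D5:**
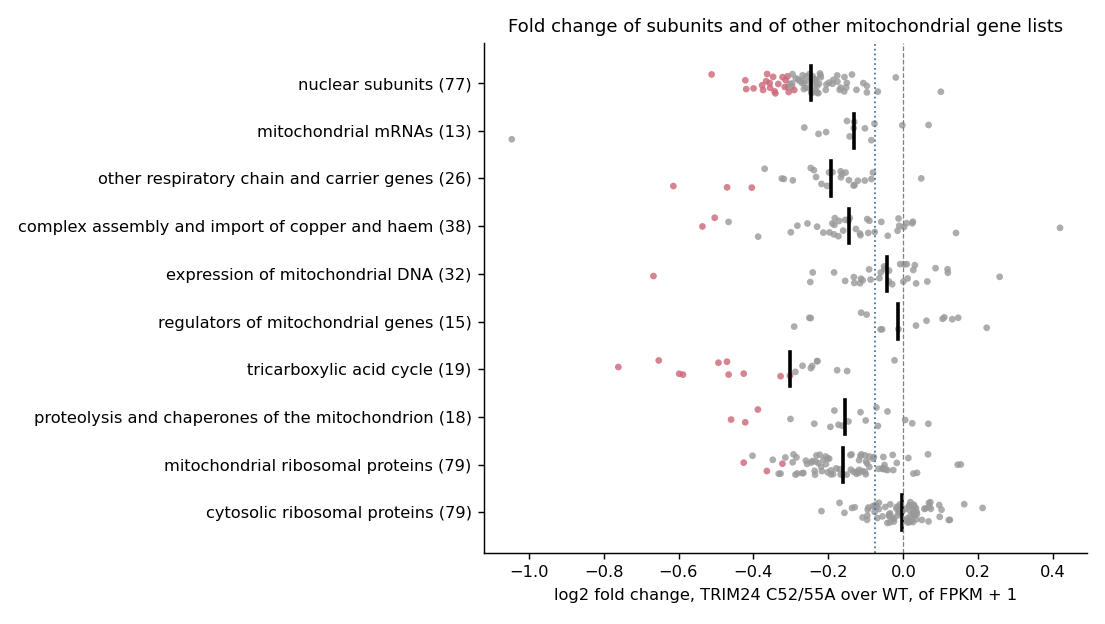
Log2 fold change of FPKM + 1, TRIM24 C52/55A over WT, of each gene tested in the subunit sets and in 8 other lists, with the number of genes in brackets. Red points have an adjusted p under 0.05, black lines are medians, and the dotted line is the median of all genes tested, -0.08. The TCA cycle has the lowest median, -0.30, followed by the nuclear subunits at -0.25, and cytosolic ribosomal proteins lie around 0 with the values as deposited.

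Markers of other cells were measured beside these results, and their part in them was not tested. Of the 5 hepatocyte markers tested 1 was called higher (*Cps1*) and 0 lower (limma), with a median log2 fold change of 0.15, and *Tat* and *Ttr* had lower means in the knockin without being called. The summed level of 6 macrophage markers was 183 to 229 FPKM in WT and 154 to 207 FPKM in the knockin, with a median log2 fold change of -0.28. The 6 endothelial markers summed to 83.9 to 92.3 and 76.4 to 85.2 FPKM, and *Lyve1* was called lower, at 8.40, 5.25 and 5.00 FPKM in WT and 0.974, 2.84 and 2.38 FPKM in the knockin. None of the others was called, and the median log2 fold change over the 6 was -0.11. Only *Kdr* had a higher mean in the knockin, at 9.61, 10.2 and 9.23 FPKM in WT and 10.4, 10.8 and 9.68 FPKM in the knockin. The 6 stellate and 6 lymphocyte markers summed to 104 to 114 and 2.68 to 3.16 FPKM in WT and to 101 to 130 and 1.98 to 2.48 FPKM in the knockin, and 6 cholangiocyte markers to 29.0 to 54.2 and 22.4 to 34.6 FPKM. Erythroid markers summed to 1254 FPKM in WT replicate 1 and to 381 to 669 FPKM in the other mice, and that mouse was the highest of the WT mice for 9 of the 77 nuclear subunits. The 4 erythroid markers tested had a median log2 fold change of -0.76 and 0 calls (limma). *Alas2* went the other way, with every knockin mouse above the WT mice. The adipocyte markers summed to 1921 to 2292 FPKM in WT and 1504 to 2146 FPKM in the knockin, mostly from *Car3*, which hepatocytes also express. Among them *Cidec*, a lipid droplet protein, was called lower, at 25.2, 9.94 and 16.4 FPKM in WT and 0.663, 6.12 and 2.12 FPKM in the knockin. Brown adipocyte markers summed to 255 to 317 and 440 to 718 FPKM, nearly all of it *Elovl3*, which was called higher, with *Ucp1* unlisted in WT and at most 0.724 FPKM in the knockin. *Cidea* of the same list went the other way, with overlapping groups. It was at 2.98, 0.590 and 2.13 FPKM in WT and 0.128, 0.889 and 0.184 FPKM in the knockin. *Dio2* was at 0.0135 FPKM in knockin replicate 2 and unlisted elsewhere.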

How the data were processed

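RNA-Seq of liver from 3 WT and 3 TRIM24 C52/55A mice was analysed from 1 table per mouse. The authors deposited FPKM per gene. The submitters' processing notes name bcl2fastq, Salmon 0.14.0, DESeq2 1.30.0 and GRCm38 without roles, and how FPKM were computed is not given in the sources used here. The tables list only values above 0, and a gene that a table does not list was entered as 0, which does not show its absence. Libraries were grouped by the labelled genotype.

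The members and lists were chosen with earlier results of these data known, and the list of cytosolic ribosomal proteins was added after seeing the data. Named genes were all mitochondrial mRNAs, the *Sdh* genes, the 3 most abundant nuclear mRNAs per complex, isoform pairs and every member with an adjusted p under 0.05, and at most 5 such genes per list. 1 gene under this rule is not reported here. *Cps1*, *Tat*, *Ttr*, *Lyve1*, *Kdr*, *Alas2*, *Cidec*, *Adipoq*, *Lep*, *Car3*, *Elovl3*, *Ucp1*, *Cidea*, *Dio2*, *Mrpl23-ps1* and the members outside this rule were named after their values were seen.

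The test was limma 3.58.1 (R 4.3.3), run on log2(FPKM + 1) of 12225 genes with eBayes, a variance trend and Benjamini-Hochberg adjustment, and checked on simulated data. Single genes of 3 against 3 mice cannot go below p = 0.1 in an exact permutation test. Replicates are separate mice. Lengths and intervals were compared with GENCODE M21, and promoters came from RefSeq (GRCm38.p6). Python 3.11.15 was used otherwise. Alternatives were other pseudocounts, filters, scalings and variance models, the replicate block and each mouse left out.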

Additional observations from a re-analysis of the deposited data

How the results depend on the processing

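No member was called higher under any of the 16 alternatives. The number called lower, 20 as reported, was 20 with a pseudocount of 0.1, 21 with a stricter filter of 1 FPKM, 20 with robust variances, 5 with no filter (*Cox4i2*, *Cox7c*, *Ndufa3*, *Ndufs5* and *Uqcr10*), 48 with TPM, 59 with a fixed nuclear total, 4 with median of ratios, 4 with quantile scaling, 7 with no variance trend and 0 to 30 with 1 mouse left out. With the replicate block it was 2 (*Cox8a* and *Uqcr10*). The fixed nuclear total is the total outside the mitochondrial genome, and it still held the chromosome 1 copies. Over all genes the number lower, 744 as reported, was 252 with no filter, 591 with no variance trend, 422 with the replicate block and 202 to 1041 with 1 mouse left out. The numbers do not mark shared litters, and same-numbered mice had correlations of -0.123, -0.0988 and 0.00267 in their deviations from the group means, so they were not taken as pairs.

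The log2 ratio of knockin to WT sums, as reported, was -0.23, -0.31, -0.30, -0.29 and -0.27 for the nuclear subunits of complexes I to V. With the fixed nuclear total these were -0.33, -0.41, -0.40, -0.39 and -0.37, with median of ratios -0.13, -0.21, -0.20, -0.19 and -0.17, and with quantile scaling -0.072, -0.15, -0.15, -0.16 and -0.14. With TPM complexes III and IV were at -0.36 and -0.36. For the mitochondrial mRNAs of complexes I, III, IV and V the reported values were -0.07, -0.26, -0.15 and -0.38, with quantile scaling -0.31, -0.52, -0.30 and -0.59. Those of complex I were at -0.13 with TPM, -0.17 with the fixed nuclear total and 0.034, a change of sign, with median of ratios, and those of complex V at -0.48 with the fixed nuclear total and -0.28 with median of ratios. The mitochondrial over nuclear log2 ratio, 0.11, was -0.23 with quantile scaling and otherwise 0.08 to 0.16. Without *mt-Atp8*, an alternative chosen after seeing the data, it was 0.13. The causes were not tested.

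Among single genes, none of them called, the sign turned for *mt-Nd1* (4.27e-05), *mt-Nd2* (0.0999), *mt-Nd6* (0.0255), *mt-Nd4l* (0.0171), *Cox6b2* (0.0185) and *Cox7a2l* (0.0416) with median of ratios, for *mt-Nd5* (-0.268), *Cox6b2* (0.0135) and *Cox7a2l* (0.0821) with quantile scaling, and for *mt-Nd5* (-0.0311) with the fixed nuclear total. With 1 mouse left out, *mt-Nd2* ran from -0.0343 to 0.0555, *mt-Nd5* from -0.0285 to 0.183, *mt-Nd4l* from -0.138 to 0.00505 and *Cox6b2* from -0.263 to 0.325. FPKM give no total count, so the error of single values is known only from the spread between mice.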
